A study of Mus musculus with 4 samples.

Results

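Of 19938 mouse genes with a probe set of a single gene symbol, 9 genes of the midbrain-hindbrain boundary were followed: the transcription factor genes En1, En2, Pax2, Pax5, Pax8, Gbx2 and Lmx1b, and the genes of the secreted signals Wnt1 and Fgf8. They were chosen by symbol, with earlier results of these data known. Each has 1 probe set, and none was left out for low signal. The arrays came from a single culture each of 4 conditions of mouse ES cells (line D3 in the article, a single established line). These were embryoid bodies (EBs, aggregates in which ES cells begin to differentiate) at day 7 treated with bexarotene, an agonist of the retinoid X receptor RXR, EBs at day 7 treated with retinoic acid (RA), the natural ligand of the receptor RAR, untreated EBs at day 7, and undifferentiated ES cells. All EBs spent 2 days as hanging drops and 5 further days in culture. Bexarotene was given at 50 nM, and RA at 5 µM according to the sample labels but at a nanomolar dose below that of bexarotene according to the article, so the ligand doses differ by either account.

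The midbrain-hindbrain boundary, or isthmus, is a signalling centre of the early neural tube. It forms where the Otx2 territory of forebrain and midbrain meets the Gbx2 territory of the anterior hindbrain, and it patterns both sides through Wnt1, made on the midbrain side, and Fgf8, made on the hindbrain side. Lmx1b, Pax2, Pax5, Pax8 and the engrailed genes En1 and En2 belong to the network that sets up and keeps this centre. Retinoic acid is known to give the neural tube a more posterior character and to switch on Hox genes of the hindbrain. Several of the 9 genes also act elsewhere, such as Gbx2 in pluripotent cells, Pax2 and Pax8 in kidney and inner ear, Pax5 in B lymphocytes and Fgf8 in the primitive streak.

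Values are log2 signal, which the authors had normalized across the arrays, and a difference of 1 on this scale is a 2-fold difference. A gene is called higher or lower here where 2 arrays differ by at least 1.5-fold, 0.58 on the log2 scale, the threshold of the article. No condition was repeated, so there is no p-value and each difference is one between 2 arrays. In bulk RNA, fewer cells of a type and less RNA per cell cannot be told apart. The spread between the bexarotene and RA arrays, taken as a robust SD over genes of similar signal, was 0.115 to 0.129 at the levels of the 9 genes, and since it contains ligand differences and comes from a single pair of arrays, it does not measure the spread between cultures. The array medians lay between 6.66 and 6.69. The signal of a probe set depends on its own probes, so a gene is compared only with itself across arrays. As a check of the labels, 10 of 11 naive pluripotency genes had lower signal in untreated EBs than ES cells did, among them Nr0b1 by 26.0-fold and Zfp42 by 15.2-fold.

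The boundary genes did not move as a block with the ligands. In bexarotene-treated EBs, 2 of 9 were higher than in untreated EBs (Pax8 and Gbx2), where 1.48% of all genes were higher, and 2 were lower (En1 and Pax5), where 2.15% of all genes were lower. In RA-treated EBs, 3 of 9 were higher than in untreated EBs (En2, Pax8 and Gbx2), where 2.07% of all genes were higher, and 3 were lower (En1, Pax5 and Wnt1), where 2.22% of all genes were lower. The median absolute log2 difference of the 9 genes was 0.55 with bexarotene, against 0.11 over all genes, and 0.67 with RA, against 0.12 over all genes. The signed medians were -0.49 with bexarotene and -0.19 with RA. Both ligand comparisons use the same untreated array, so they are not independent of each other.

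**Figure D1:**
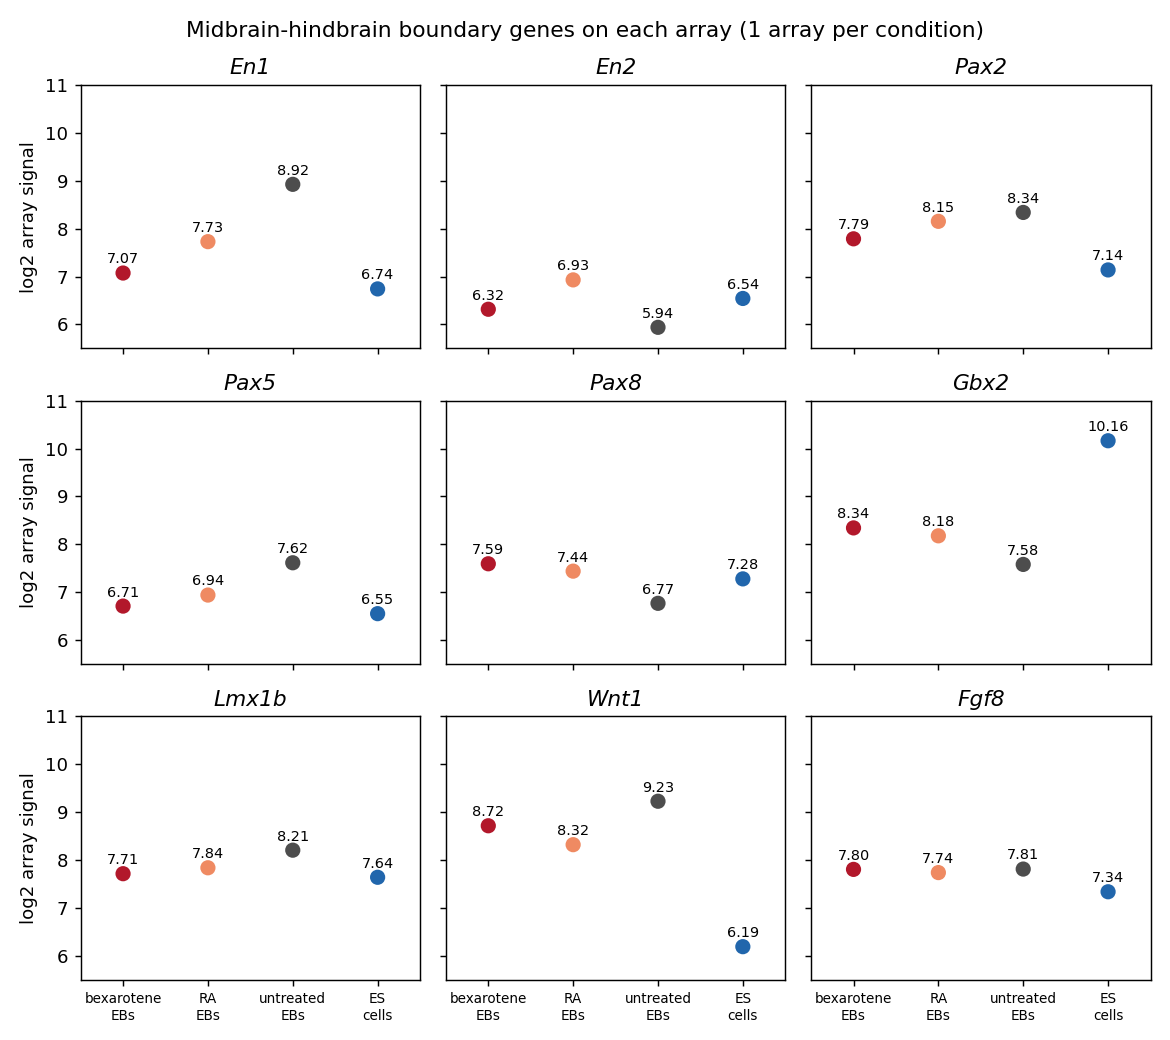
Log2 array signal (y axis) of the 9 midbrain-hindbrain boundary genes in bexarotene-treated EBs, RA-treated EBs, untreated EBs and ES cells (x axis), with 1 point per array and no replicates. En1 stands at 7.07 and 7.73 on the ligand arrays and at 8.92 on the untreated EB array, while Fgf8 stays between 7.74 and 7.81 on the EB arrays.

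The engrailed paralogs, homeobox genes needed for midbrain and cerebellum, differed in opposite directions with RA. En1 had a log2 signal of 7.07 with bexarotene, 7.73 with RA, 8.92 in untreated EBs and 6.74 in ES cells. Relative to untreated EBs the decrease was 3.61-fold for bexarotene and 2.29-fold for RA. Of all genes, 0.145% were at least as far lower with bexarotene, and 0.517% with RA. En1 thus had the largest absolute ligand difference of the 9 genes in both comparisons, and its bexarotene level was 1.26-fold above that of ES cells.

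En2, by contrast, had its lowest signal in untreated EBs. Its log2 signal was 6.32 with bexarotene, 6.93 with RA, 5.94 in untreated EBs and 6.54 in ES cells. It was 1.99-fold higher with RA than in untreated EBs, and 0.672% of all genes were at least as far higher. With bexarotene the log2 difference was 0.38, below the threshold. The En2 signal lay below the array median with bexarotene, in untreated EBs and in ES cells, and the table gives no detection call, so whether the gene was detected there cannot be told.

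The Pax genes of this network encode closely related paired-domain factors, of which Pax2 acts first at the boundary and Pax5 follows. Pax5 had a log2 signal of 6.71 with bexarotene, 6.94 with RA, 7.62 in untreated EBs and 6.55 in ES cells. Relative to untreated EBs the decrease was 1.87-fold for bexarotene and 1.60-fold for RA. The Pax5 signal with bexarotene lay only just above the array median. Pax2 had a log2 signal of 7.79 with bexarotene, 8.15 with RA, 8.34 in untreated EBs and 7.14 in ES cells. Its log2 differences from untreated EBs were -0.55 with bexarotene, just short of the threshold, and -0.19 with RA.

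Pax8, also a factor of kidney and thyroid, lay on the other side. Its log2 signal was 7.59 with bexarotene, 7.44 with RA, 6.77 in untreated EBs and 7.28 in ES cells. It was 1.77-fold higher with bexarotene and 1.59-fold higher with RA than in untreated EBs, and 0.752% of all genes with bexarotene and 1.57% with RA were at least as far higher. Untreated EBs had the lowest Pax8 signal of the 4 conditions, only just above the array median, whereas they had the highest Pax2 and Pax5 signals. The array probes of these paralogs were not examined here.

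Markers of other tissues that use Pax2, Pax5 or Pax8 showed no common direction. Of 13 genes of intermediate mesoderm and kidney, 2 were higher (Osr1 and Ret) and 2 lower (Lhx1 and Sall1) with bexarotene than in untreated EBs, and 1 was higher (Ret) and 1 lower (Sall1) with RA, the lower call being lost under loess (0 lower). Their mean log2 signal was 7.70 with bexarotene, 7.52 with RA, 7.55 in untreated EBs and 7.21 in ES cells. Of 11 otic placode genes, 1 was higher and 1 lower with bexarotene and 2 were lower with RA, with means of 7.60 with bexarotene, 7.40 with RA, 7.53 in untreated EBs and 7.23 in ES cells. Most genes of both lists were short of the threshold. Of 6 thyroid genes, 2 were lower with each ligand, Nkx2-1 and Hhex, which also mark forebrain and endoderm, with means of 6.46 with bexarotene, 6.47 with RA, 6.76 in untreated EBs and 6.54 in ES cells. Of 8 B lymphocyte genes, only Ebf1, which is also expressed in developing neurons, was higher with either ligand, with means of 6.08 with bexarotene, 6.10 with RA, 5.74 in untreated EBs and 6.10 in ES cells. The part of these tissues in the Pax signals was not tested.

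Gbx2, the homeobox gene of the hindbrain side, was above its untreated level with both ligands. The log2 signal was 8.34 with bexarotene, 8.18 with RA, 7.58 in untreated EBs and 10.16 in ES cells. The difference from untreated EBs was 1.70-fold with bexarotene and 1.51-fold with RA, and the RA value lies close to the threshold. ES cells had the highest signal, and Gbx2 is also a gene of pluripotent cells. Of 11 naive pluripotency genes, 1 (Nr0b1) was higher with bexarotene than in untreated EBs and 5 were higher with RA, among them Esrrb by 1.63-fold. Quantile normalization gave 2 higher with bexarotene. The mean log2 signal of this list was 8.01 with bexarotene, 8.21 with RA, 7.69 in untreated EBs and 10.09 in ES cells. The part of pluripotent cells in the Gbx2 difference was not tested.

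Lmx1b, a LIM homeobox gene that acts upstream of Wnt1 and Fgf8 at the isthmus and later in dopaminergic and serotonergic neurons, stayed below the threshold in each comparison. Its log2 signal was 7.71 with bexarotene, 7.84 with RA, 8.21 in untreated EBs and 7.64 in ES cells. The log2 difference from untreated EBs was -0.49 with bexarotene and -0.37 with RA. Untreated EBs thus had the highest value, by 1.41-fold over bexarotene and 1.29-fold over RA.

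The signals of the boundary parted as well. Wnt1, the ligand of the midbrain side, had a log2 signal of 8.72 with bexarotene, 8.32 with RA, 9.23 in untreated EBs and 6.19 in ES cells. It was 1.87-fold lower with RA than in untreated EBs, with 0.968% of all genes at least as far lower, and its log2 difference with bexarotene was -0.51, short of the threshold. The article, from these same arrays, describes Wnt1 as lower with RA than in untreated EBs, and elsewhere as repressed by either ligand. The values here are thus not independent of it, and only the RA difference passed its threshold. Wnt1 is also made in the dorsal neural tube, where of 13 listed genes 4 were higher and 1 (Rspo3) lower with bexarotene, and 3 were higher and 1 (Rspo3) lower with RA. The mean log2 signal of those 13 genes was 7.67 with bexarotene, 7.59 with RA, 7.52 in untreated EBs and 6.83 in ES cells, and their part in the Wnt1 signal was not tested.

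Fgf8, the ligand of the hindbrain side, had nearly the same signal on the EB arrays. Its log2 signal was 7.80 with bexarotene, 7.74 with RA, 7.81 in untreated EBs and 7.34 in ES cells. The log2 difference from untreated EBs was -0.01 with bexarotene and -0.07 with RA, within the spread of 0.127 between the ligand arrays at this signal. A small effect would not be detectable with single arrays. Of 12 primitive streak and tail bud genes, where Fgf8 is also expressed, 4 were lower with bexarotene and 3 lower and 1 higher with RA than in untreated EBs. The streak gene T (brachyury) was listed too, but no probe set carried T as its single symbol, so it is not counted. Other symbols of this gene were not searched, so its absence here does not mean that the arrays lack it. The article reports T as lower with each ligand than in untreated EBs. The mean log2 signal of this list was 6.80 with bexarotene, 7.00 with RA, 7.20 in untreated EBs and 7.18 in ES cells, and its part in the Fgf8 signal was not tested.

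**Figure D2:**
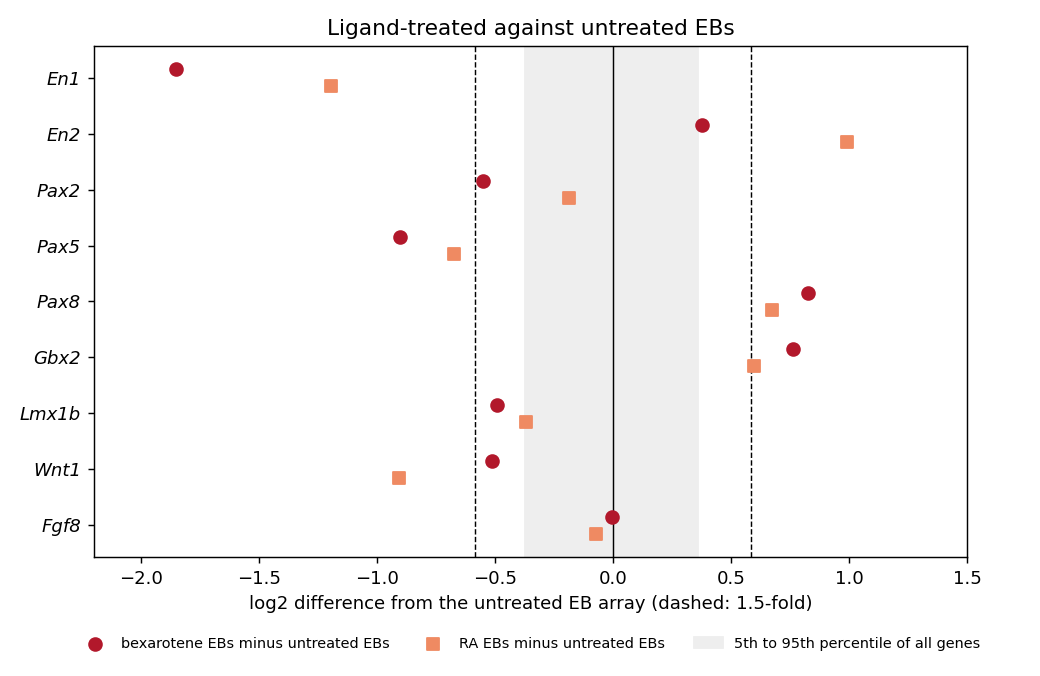
Log2 difference of each boundary gene from the untreated EB array (x axis), for bexarotene-treated EBs (circles) and RA-treated EBs (squares), with 1 array per condition. Dashed lines mark 1.5-fold and the grey band spans the 5th to 95th percentile of all genes over both comparisons. En1 lies farthest to the left (-1.85 and -1.20), Pax8 and Gbx2 lie right of the upper line and Fgf8 lies near 0.

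For orientation in the genome, the 250 bases before the annotated start are shown for the gene with the largest bexarotene decrease (En1), the gene with the largest bexarotene increase (Pax8), and the only gene with a match to a searched receptor motif (Lmx1b). They come from the RefSeq annotation of GRCm38.p6, run 5′ to 3′ on the strand of the gene, and are in lower case with the motif AGTTCA in capitals. The window of En1 is chr1:120602237-120602486 (plus strand), that of Pax8 chr2:24475600-24475849 (minus strand) and that of Lmx1b chr2:33641099-33641348 (minus strand).
En1: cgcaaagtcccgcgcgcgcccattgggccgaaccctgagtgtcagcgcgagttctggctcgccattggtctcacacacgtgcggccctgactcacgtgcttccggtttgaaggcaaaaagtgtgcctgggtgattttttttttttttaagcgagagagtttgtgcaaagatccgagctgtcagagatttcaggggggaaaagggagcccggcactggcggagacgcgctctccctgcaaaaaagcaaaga
Pax8: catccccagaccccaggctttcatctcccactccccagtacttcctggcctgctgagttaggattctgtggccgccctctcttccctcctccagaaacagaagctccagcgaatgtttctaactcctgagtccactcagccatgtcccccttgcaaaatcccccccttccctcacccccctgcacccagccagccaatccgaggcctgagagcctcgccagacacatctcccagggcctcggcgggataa
Lmx1b: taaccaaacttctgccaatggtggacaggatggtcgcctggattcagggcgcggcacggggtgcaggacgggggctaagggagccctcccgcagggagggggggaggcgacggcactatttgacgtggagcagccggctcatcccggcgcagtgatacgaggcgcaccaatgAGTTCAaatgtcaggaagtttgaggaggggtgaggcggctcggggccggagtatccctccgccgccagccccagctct

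RAR-RXR dimers bind repeats of AGGTCA or AGTTCA. A promoter window was found for 7 of the 9 genes, 9 windows in all because Pax2 has 3. En2 and Fgf8 had no window and were not searched. On both strands, AGGTCA was in none of the 9 windows and in 14.0% of all 32851 windows, and AGTTCA was in the Lmx1b window and in 11.8% of all windows. The homeodomain motif TAATTA, which overlaps neither, was in none of the 9 and in 4.84% of all windows. These are letter matches in a short window, not binding sites. The GC content was 56.0% for En1, 60.4% for Pax8 and 65.2% for Lmx1b, with a median of 52.4% over all windows.

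Relative to ES cells, untreated EBs differed for most of the boundary genes. Of the 9, 4 were higher in untreated EBs (En1, Pax2, Pax5 and Wnt1), where 11% of all genes were higher, and 2 were lower (Gbx2 and En2), where 8.52% of all genes were lower. Wnt1 was 8.20-fold higher and En1 4.54-fold higher, with 0.341% and 1.13% of all genes at least as far higher. Pax2 was 2.30-fold and Pax5 2.09-fold higher. In ES cells the signals of Wnt1 and Pax5, like that of En2, lay below the array median, so whether these genes were detected there cannot be told and their folds over ES cells are uncertain. The En1 signal in ES cells, 6.74, lay only just above the median of 6.66, so its fold is uncertain too. The genes that were higher thus included the midbrain signal, an engrailed gene and the Pax genes Pax2 and Pax5. Gbx2 was 5.99-fold lower, with 0.326% of all genes at least as far lower, and En2 was 1.52-fold lower. Lmx1b, Fgf8 and Pax8 were short of the threshold, with log2 differences of 0.57, 0.47 and -0.51.

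The ligand-treated EBs also differed from ES cells for part of the set. Wnt1 remained the gene farthest above ES cells, by 5.75-fold with bexarotene and 4.38-fold with RA. Of all genes, 0.692% with bexarotene and 1.14% with RA were at least as far above. Pax2 was 1.57-fold above ES cells with bexarotene (8.96% of all genes at least as far) and 2.02-fold with RA (5.31%). En1 was 1.26-fold above ES cells with bexarotene, below the threshold, and 1.98-fold with RA. For En1, 16.7% of all genes with bexarotene and 5.49% with RA were at least as far above. Gbx2 was 3.53-fold below ES cells with bexarotene (0.968% of all genes at least as far) and 3.96-fold with RA (0.577%). The remaining 5 genes were within 1.5-fold of ES cells with either ligand. The share of all genes past 1.5-fold was not taken for these comparisons. These comparisons share the ES cell array and the limits on the Wnt1 and En1 signals there.

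**Figure D3:**
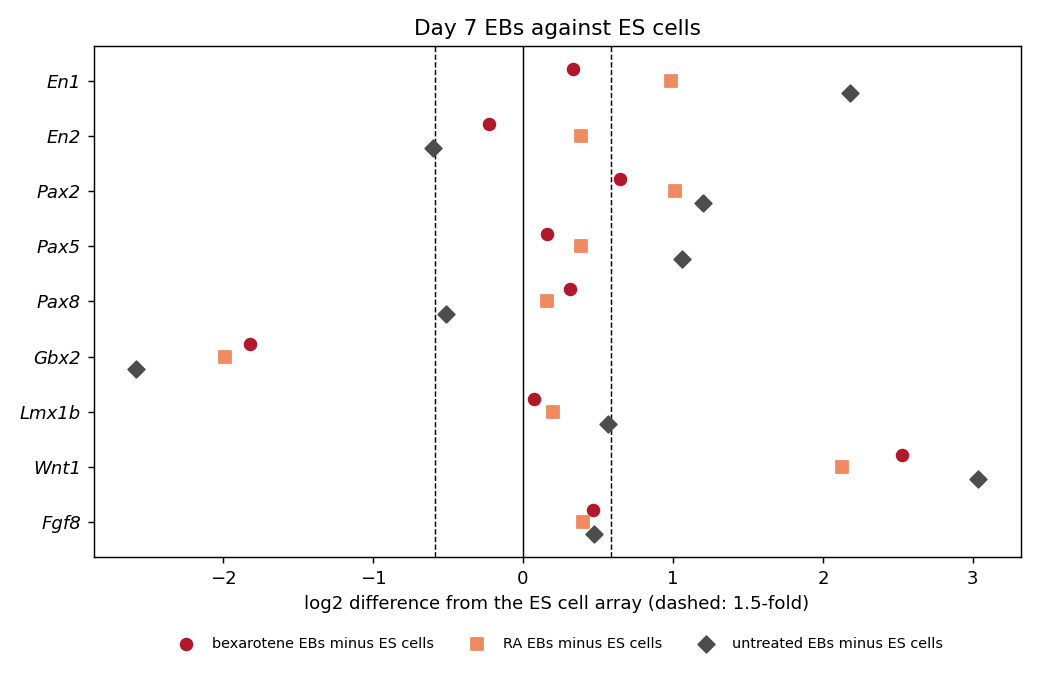
Log2 difference of each boundary gene from the ES cell array (x axis) in bexarotene-treated EBs (circles), RA-treated EBs (squares) and untreated EBs (diamonds), with 1 array per condition and dashed lines at 1.5-fold. Wnt1 lies far to the right on all EB arrays (2.52, 2.13 and 3.04) and Gbx2 far to the left (-1.82, -1.98 and -2.58), while En1 lies near 0 with bexarotene (0.33) but not in untreated EBs (2.18).

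Between the ligands, at the unequal doses given above, only the engrailed genes among the 9 passed the threshold. In bexarotene-treated EBs, 2 of 9 genes were lower than in RA-treated EBs, En1 by 1.57-fold and En2 by 1.53-fold, where 0.296% of all genes were lower. None of the 9 was higher, where 0.196% of all genes were higher. The log2 differences were -0.66 for En1 and -0.61 for En2, with 0.181% and 0.251% of all genes at least as far lower. The En2 signal with bexarotene lay below the array median, so whether En2 was detected there cannot be told. Wnt1 had the largest positive difference, 0.39, and Pax2 had -0.37, both below the threshold. For the other 5 genes the difference lay between -0.23 (Pax5) and 0.17 (Gbx2). The spread between these arrays at the signal of En1 and En2 was 0.129 and 0.119, but it comes from the same pair of arrays. Of 14 midbrain and forebrain genes, 4 were also lower with bexarotene than with RA (Otx2, Lhx2, Lhx5 and Fezf2) and 0 were higher.

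Genes on the anterior side of the boundary were mostly lower with the ligands. Of 14 genes of midbrain and forebrain, 11 were lower with bexarotene than in untreated EBs and 9 with RA, and 1, the eye and brain factor Pax6, was higher with each. The median log2 difference was -1.77 with bexarotene and -1.20 with RA. Otx2, the homeobox gene that meets Gbx2 at the boundary, had a log2 signal of 9.65 with bexarotene, 10.29 with RA, 11.64 in untreated EBs and 9.82 in ES cells, a decrease relative to untreated EBs of 3.98-fold for bexarotene and 2.55-fold for RA. Gbx2 was thus higher and Otx2 lower with each ligand. Otx2, like Gbx2, also lay well above the array median in ES cells. The part of pluripotent cells in the Otx2 difference was not tested. Hesx1, which encodes a transcriptional repressor and is expressed in the anterior forebrain, had the largest decrease of the list. Its log2 signal was 6.54 with bexarotene, 7.09 with RA, 10.10 in untreated EBs and 6.85 in ES cells. The forebrain factor Six3 had 6.35 with bexarotene, 6.65 with RA, 8.90 in untreated EBs and 6.45 in ES cells, and Fezf2 had 7.07 with bexarotene, 7.68 with RA, 9.35 in untreated EBs and 6.65 in ES cells. For these 3 genes, as for En1, the signal on both ligand arrays lay nearer to that of ES cells than to that of untreated EBs. Dmbx1, a midbrain homeobox gene, was below its untreated level by 3.96-fold with bexarotene and by 4.25-fold with RA.

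Genes on the posterior side were higher or little different. Of 12 hindbrain genes, 6 were higher with bexarotene and 5 with RA than in untreated EBs, and none was lower, with median log2 differences of 0.57 and 0.44. The genes that were higher with RA were Hox genes (Hoxb1, Hoxa2, Hoxb2, Hoxa3 and Hoxb3), and those higher with bexarotene were Hoxb1, Hoxa2, Hoxb2, Hoxa3, Hoxb3 and Irx2, an Iroquois gene. Hoxb2 had a log2 signal of 10.01 with bexarotene, 9.58 with RA, 6.52 in untreated EBs and 6.73 in ES cells, an 11.3-fold increase over untreated EBs with bexarotene and 8.34-fold with RA. Hoxb1 had 10.02 with bexarotene, 9.25 with RA, 6.61 in untreated EBs and 6.65 in ES cells, and Hoxa2 had 8.81 with bexarotene, 8.52 with RA, 5.71 in untreated EBs and 5.27 in ES cells. In untreated EBs the signals of Hoxb1, Hoxa2, Hoxb2 and Hoxa3 lay below the array median. Detection of these Hox genes there cannot be told, so their folds over untreated EBs are uncertain. Atoh1, a gene of the rhombic lip, and the rhombomere genes Egr2 and Fgf3 were within 1.5-fold of untreated EBs with either ligand. The Atoh1 and Egr2 signals lay below the array median on all 4 arrays, and that of Fgf3 on all but the bexarotene array. Whether these genes were detected there cannot be told.

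Most genes of the FGF and Wnt pathways were short of the threshold with the ligands. Of 17 FGF ligands, receptors and feedback genes, 2 were higher with bexarotene than in untreated EBs (the receptor gene Fgfr3 and Cnpy1) and 3 with RA (these and Etv5), and none was lower. The feedback inhibitor Spry4 had a log2 signal of 8.12 with bexarotene, 8.47 with RA, 8.05 in untreated EBs and 11.40 in ES cells, and the FGF-responsive factor Etv4 had 6.92 with bexarotene, 6.95 with RA, 6.79 in untreated EBs and 9.70 in ES cells. Neither passed the threshold with a ligand, the largest difference being 0.42 for Spry4 with RA, and both were far below ES cells on the EB arrays. The receptor gene Fgfr2 had 9.59 with bexarotene, 9.71 with RA, 10.16 in untreated EBs and 8.13 in ES cells. Of 11 Wnt ligands and targets, 3 were lower with bexarotene (Wnt8b, Lef1 and Apcdd1) and 3 with RA (Wnt8b, Lef1 and Apcdd1), and 1 (Sp8) was higher with RA. Apcdd1, a Wnt inhibitor that is also a Wnt target, had a log2 signal of 8.32 with bexarotene, 8.41 with RA, 9.92 in untreated EBs and 7.58 in ES cells. Lef1, a nuclear effector of Wnt signalling, had 7.65 with bexarotene, 7.89 with RA, 8.85 in untreated EBs and 7.46 in ES cells. Nkd1, an inhibitor that Wnt signalling induces, showed little change with the ligands, at 8.85 with bexarotene, 8.88 with RA, 8.82 in untreated EBs and 7.41 in ES cells.

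Genes of the neurons that later arise on either side showed mixed values. Of 15 genes of midbrain dopaminergic and hindbrain serotonergic neurons, 3 were higher and 3 lower with bexarotene than in untreated EBs, and 2 were higher and 4 lower with RA, where quantile normalization and loess each gave 3 higher. Gata2, 1 of the 3 higher with bexarotene, lay just past the threshold, at a log2 difference of 0.59. Foxa1 and Foxa2, forkhead genes of the floor plate and of endoderm, were among those that were lower with each ligand. Foxa1 had a log2 signal of 7.56 with bexarotene, 7.55 with RA, 10.11 in untreated EBs and 7.11 in ES cells, and Foxa2 had 8.04 with bexarotene, 7.93 with RA, 9.19 in untreated EBs and 6.62 in ES cells. Gata3, a factor of serotonergic neurons, had 8.37 with bexarotene, 7.85 with RA, 8.66 in untreated EBs and 6.66 in ES cells. Ddc, the enzyme shared by dopamine and serotonin synthesis, was 2.10-fold higher with bexarotene and 2.02-fold higher with RA. Its signal in untreated EBs lay below the array median, so these folds are uncertain. The serotonergic gene Tph2 differed from untreated EBs by 0.02 with bexarotene and 0.11 with RA on the log2 scale, and Slc6a4 by 0.01 with bexarotene and -0.07 with RA. The Tph2 and Slc6a4 signals lay below the array median on all 4 arrays, so whether these genes were detected cannot be told.

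**Figure D4:**
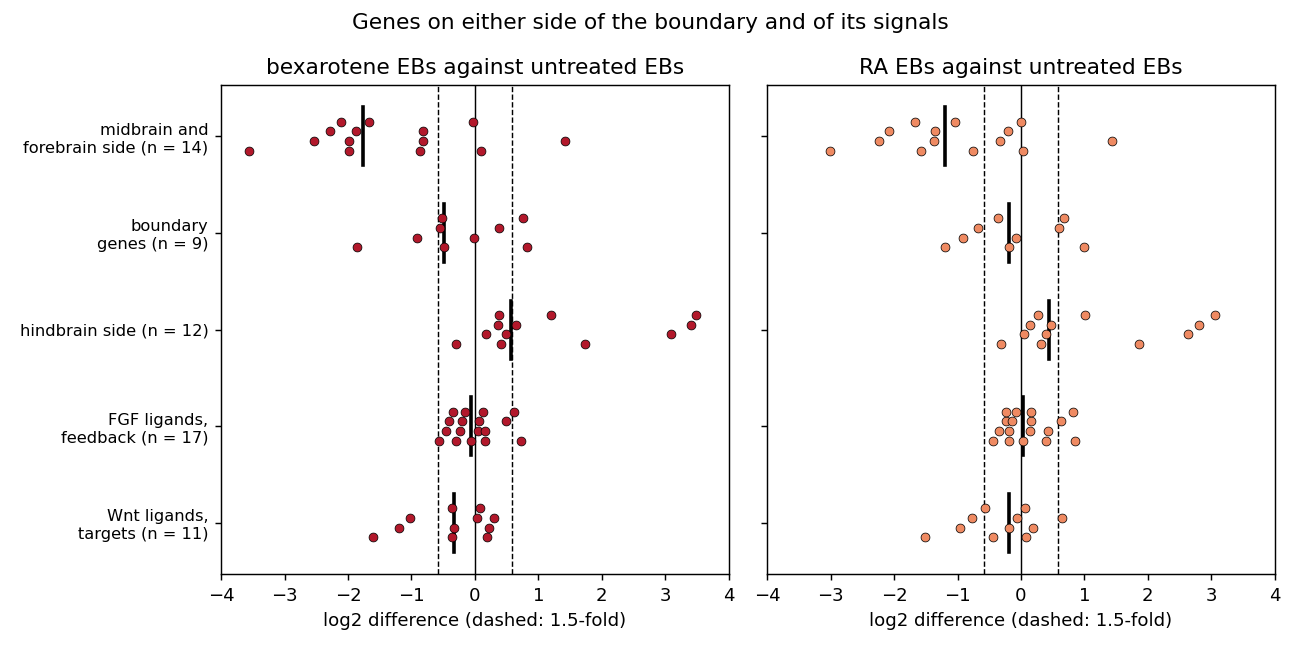
Log2 difference from the untreated EB array (x axis) of single genes in bexarotene-treated EBs (left panel) and RA-treated EBs (right panel), with 1 point per gene, black bars at the list medians and dashed lines at 1.5-fold. Midbrain and forebrain genes lie mostly to the left (medians -1.77 and -1.20), hindbrain genes to the right (0.57 and 0.44) and the boundary genes on both sides (-0.49 and -0.19).

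The genes with the most similar pattern were ranked by the distance between log2 signals centred over the 4 arrays, for the 7 boundary genes that spanned at least 1.5-fold. En1 was closest to Tal2, a midbrain factor (distance 0.150), and Lhx5, a forebrain LIM homeobox gene (0.190), both in the midbrain and forebrain list above. Tal2 had a log2 signal of 5.06 with bexarotene, 5.56 with RA, 6.94 in untreated EBs and 4.75 in ES cells, so, like En1, it was highest in untreated EBs and lower with bexarotene than with RA. En2 was closest to Gstm7 (0.148) and Stmn3 (0.190). Pax2 was closest to the cadherin gene Cdh20 (0.0461) and Sorcs1 (0.0997), and Pax5 to H1f2 (0.103) and Ptgds (0.105). The Pax2 and Pax5 neighbours, like these genes, were highest in untreated EBs. Pax8 was closest to Prss52 (0.104) and Aldh3b3 (0.131), and Gbx2 to Zfp345 (0.174) and AU018091 (0.234). Wnt1 was closest to Foxc2 (0.192), a forkhead gene of mesoderm, and Nrp1 (0.193), a semaphorin receptor gene. With 4 arrays, many genes can share such a pattern, and the distances are a description only.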

How the data were processed

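Total RNA from 4 cultures was hybridised to Affymetrix GeneChip arrays, 1 array per condition, and the deposited table holds log2 signal for 35556 probe sets. The authors background-corrected, normalized and summarized these values before deposit, with RMA named in the article, but GC-RMA in the design text and in the submitters' processing notes (Affymetrix Expression Console, GCRMA). The genome build behind the probe sets is not given in the sources used here. Scanner files were not used here.

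In the annotation of the platform, 21789 probe sets carry a single gene symbol, 1621 carry several and 12146 carry no symbol. Genes stand by the probe set with 1 symbol that has the highest mean signal (19938 genes, of which 19919 match a current RefSeq symbol). Differences were taken between arrays on the log2 scale and called at 1.5-fold, the threshold of the article, with no test. The members and gene lists were chosen with earlier results of these data known. The 9 boundary genes are all named. From each list, the 3 genes with the largest difference in a ligand comparison or between untreated EBs and ES cells are named, and the others named in the text were chosen after their values were seen. Genes without a probe set of 1 symbol were left out of the list counts. Alternatives were a 2-fold threshold, quantile normalization, loess against the mean array (span 0.3), a floor at the 25th percentile, leaving out genes below the median of both arrays, and the mean probe set per gene. The calling of differences and both normalizations were tested on simulated data. Python 3.11.15, pandas 2.3.3, numpy 2.4.6, statsmodels 0.14.6 and matplotlib 3.10.9 were used.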

Additional observations from a re-analysis of the deposited data

How the results depend on the processing

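At a 2-fold threshold, 1 of 9 boundary genes was past it with bexarotene against untreated EBs (0 higher, 1 lower), and likewise 1 with RA (0 higher, 1 lower), En1 in both. At the same threshold 0 were past it between bexarotene and RA (0 lower), and 1 was lower in untreated EBs relative to ES cells, Gbx2, because En2 was past only 1.5-fold. The share of all genes past 2-fold was not taken, so these 2-fold counts stand without that comparison. Loess against the mean array brought the En2 difference between untreated EBs and ES cells to -0.53, which left 1 gene lower, and leaving out genes below the median of both arrays removed En2 from that comparison, again with 1 gene lower. No other call of the 9 genes at 1.5-fold changed under quantile normalization, loess, the floor, the median filter or the mean probe set. Of the counts given for other lists in the ligand comparisons, quantile normalization and loess moved the dopaminergic and serotonergic genes higher with RA to 3, loess moved the kidney genes lower with RA to 0, and quantile normalization moved the pluripotency genes higher with bexarotene to 2. Quantile normalization moved no log2 difference of the 9 genes by more than 0.105, and loess none by more than 0.0688. The floor and the mean probe set moved none, since each gene has 1 probe set above the floor. No replicate could be left out, and the table gives no detection call or background level.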

Other observations

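Genes of other tissues that use a boundary gene were followed on the same arrays. Among naive pluripotency genes, the nuclear receptor gene Nr0b1 had a log2 signal of 8.22 with bexarotene, 8.74 with RA, 7.37 in untreated EBs and 12.07 in ES cells, Esrrb had 7.78 with bexarotene, 8.10 with RA, 7.40 in untreated EBs and 10.92 in ES cells, and Zfp42 had 6.50 with bexarotene, 6.80 with RA, 6.14 in untreated EBs and 10.07 in ES cells. All 3 were far lower in EBs, and lowest without ligand. In the primitive streak list, Gsc, a gene of the organizer, had 6.84 with bexarotene, 6.84 with RA, 8.08 in untreated EBs and 6.86 in ES cells, Fgf5, a gene of the epiblast, had 7.62 with bexarotene, 8.48 with RA, 9.15 in untreated EBs and 7.06 in ES cells, and Fgf4 had 8.42 with bexarotene, 8.66 with RA, 7.99 in untreated EBs and 11.12 in ES cells. Gsc and Fgf5 were thus highest in untreated EBs, and Fgf4 in ES cells.

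Among kidney genes, Lhx1 had a log2 signal of 7.06 with bexarotene, 7.96 with RA, 8.07 in untreated EBs and 6.45 in ES cells, and so fell with bexarotene but not past the threshold with RA. Eya1 had 9.70 with bexarotene, 9.44 with RA, 9.63 in untreated EBs and 7.37 in ES cells, and Nphs1 had 6.65 with bexarotene, 6.76 with RA, 6.47 in untreated EBs and 8.49 in ES cells. Among otic genes, Tbx1 had 8.34 with bexarotene, 7.91 with RA, 9.09 in untreated EBs and 7.55 in ES cells, and Dlx5 had 7.62 with bexarotene, 6.94 with RA, 7.18 in untreated EBs and 6.11 in ES cells. Gata3, which is also an otic gene, is given above with the serotonergic genes. Tbx1 was thus highest in untreated EBs and Dlx5 with bexarotene.

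Among genes of the dorsal neural tube, Zic1 had a log2 signal of 9.34 with bexarotene, 9.31 with RA, 8.36 in untreated EBs and 6.56 in ES cells, and Pax3 had 8.45 with bexarotene, 8.06 with RA, 7.45 in untreated EBs and 5.56 in ES cells. Both were higher with each ligand, whereas Rspo3, a Wnt agonist gene, had 6.45 with bexarotene, 6.21 with RA, 8.05 in untreated EBs and 5.74 in ES cells. Among B lymphocyte genes, Ebf1 had 9.22 with bexarotene, 9.65 with RA, 7.76 in untreated EBs and 8.48 in ES cells, Vpreb1 had 5.99 with bexarotene, 5.92 with RA, 5.42 in untreated EBs and 5.71 in ES cells, and Cd79a had 4.90 with bexarotene, 5.00 with RA, 4.84 in untreated EBs and 6.0 in ES cells. Among thyroid genes, Hhex had 6.05 with bexarotene, 6.16 with RA, 7.03 in untreated EBs and 6.72 in ES cells, Nkx2-1 had 6.13 with bexarotene, 6.35 with RA, 6.96 in untreated EBs and 6.18 in ES cells, and Tshr had 6.12 with bexarotene, 5.88 with RA, 6.18 in untreated EBs and 5.19 in ES cells. Hhex and Nkx2-1 were lower with each ligand, and Tshr lay within the threshold.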
